A study of Mus musculus with 6 samples.

Results

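The 10 genes described here encode the receptors of the VEGF and angiopoietin families in endothelium, together with 3 secreted products of endothelial cells that act in or report on these pathways. They are Kdr, Flt1 and Flt4 (VEGF receptors), Nrp1 and Nrp2 (neuropilins), Tek and Tie1 (TIE receptors), and Angpt2, Apln and Esm1. They were picked by gene name from a table of 54532 genes, and each of the 10 had a row. The rule uses no measured value, but the members were chosen with earlier results of these data known. RNA-seq was run on brain endothelium isolated by sorting from Df(h22q11)/+ mice, a model of human 22q11.2 deletion syndrome in which 1 of the 2 copies of the orthologous region is lost. The untreated group (3 libraries, here F_1, F_2 and M_1, with F for female and M for male pools) ate irradiated base chow, and the bezafibrate group (3 libraries, F_1, M_1 and M_2) ate chow enriched with 0.5% bezafibrate, a fibrate drug that activates PPAR nuclear receptors, for 4 weeks. The labels give ages of 12 to 16 weeks, the same deletion in both groups, and 3 brains of 1 sex pooled in each library; wild-type mice were not analysed here, so the values do not show what the deletion itself did. The sort kept live cells with CD31 and without CD45 or PDGFRb on their surface.

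VEGFR2, the product of Kdr, carries most of the growth, survival and permeability signal of VEGF-A in endothelium, whereas VEGFR1 (Flt1) binds VEGF-A tightly, signals weakly and, as a secreted soluble form, traps the ligand. VEGFR3 (Flt4) is the receptor for VEGF-C and VEGF-D, and the neuropilins are co-receptors shared by VEGFs and class 3 semaphorins. Tek encodes TIE2, the angiopoietin receptor that keeps vessels quiescent when angiopoietin-1 binds it, Tie1 encodes its partner, and angiopoietin-2 is made by the endothelium itself and can oppose angiopoietin-1. In the brain these pathways govern vessel growth during development and the tightness of the blood-brain barrier in the adult.

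Depth was even, with 16858130 to 20228619 reads per library recovered from the deposited values and 11060 to 11387 genes at 1 FPKM or more. FPKM counts reads per kilobase of gene, scaled for each library, so levels of different genes can be set side by side. The library size implied by the scaling was not the read total, which was 0.888 to 1.09 times that size, lowest in bezafibrate M_1 and M_2 and highest in untreated M_1 and bezafibrate F_1. Endothelial markers were abundant, all 10 of 10 passing the filter on low values described next, with a summed level of 4762 to 6052 FPKM in untreated and 4282 to 5773 FPKM in bezafibrate libraries. In a principal component analysis the leading axis, with 39.3% of the variance, set untreated M_1 (score 30.3) and bezafibrate F_1 (24.4) apart from the remaining 4 libraries (-22.6 to 1.62). Each is the only library of its sex on its chow.

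No difference between chows in any of the 10 genes passed the test. All 10 passed the filter of at least 1 FPKM in at least 3 libraries, as did 11277 genes in all, and limma on log2(FPKM + 1), with p adjusted by Benjamini-Hochberg over those 11277 genes, gave 0 calls among the 10 at an adjusted p under 0.05. The adjusted p was 0.999 for each of them. Over all genes tested, 1 was called, which is 0.00887%. At an unadjusted p under 0.05 the count among the 10 was again 0, against 472 of 11277 genes (4.19%). In none of the 10 did the 3 bezafibrate values lie wholly above the untreated ones, an arrangement found in 4.29% of all genes, or wholly below them, found in 4.13%. The difference, bezafibrate minus untreated, was below 0 for 9 genes and above 0 for Esm1, with a median of -0.21 on the log2 scale, beside -0.01 over all genes, of which 5432 lay above and 5845 below 0. Under TPM, quantile, endothelium-relative and voom scaling, 7 of the 10 were below and 3 above 0. The median over all genes was then 0.099, 0.005, 0.11 and 0.098, in that order, and the median of the 10 lay between -0.11 and -0.095. With pools blocked by name (the replicate block) the median of the 10 was -0.037. In that fit untreated F_2 and bezafibrate M_2 had no namesake on the other chow, so its differences rest on the F_1 and M_1 pools. The untreated male library is M_1 by its title but M_2 by its column name. The column name would pair it with bezafibrate M_2 instead, a block that was not fitted. With a bezafibrate library left out, the median of the 10 was -0.31 without M_1 and -0.10 without M_2. Differences on this scale understate those of genes with a low FPKM. In bulk RNA, fewer cells of a type and less RNA per cell cannot be told apart.

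**Figure D1:**
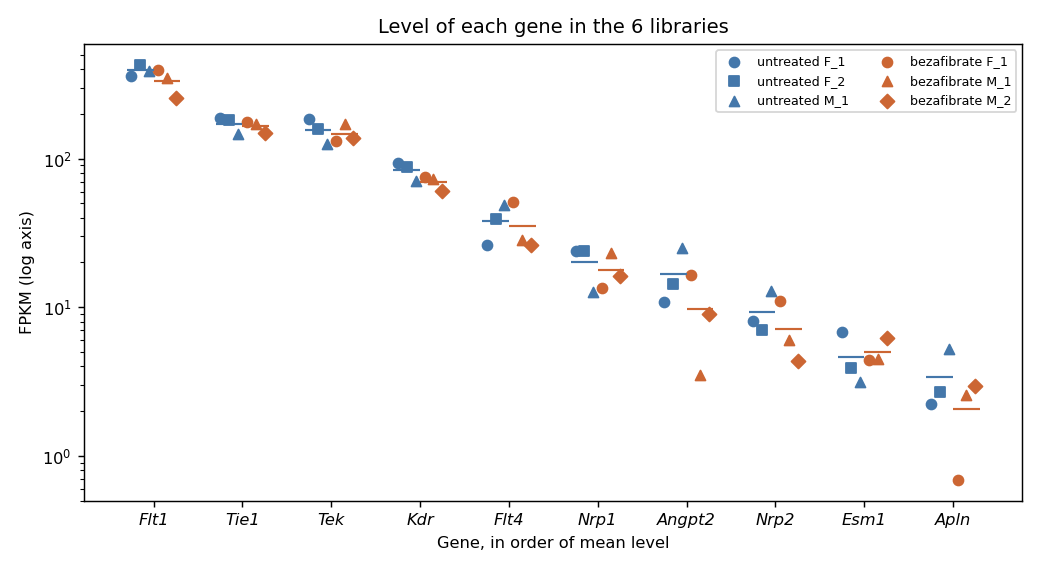
FPKM of each of the 10 genes (log axis) in the 6 libraries, ordered by mean level. Points are libraries, colours the 2 chows, shapes the names of the pools, and short lines the mean of each group. Flt1 is highest in every library, the 2 chows overlap for every gene, and Angpt2 and Apln spread over a wider range than Tie1 or Kdr.

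The promoters of 5 of the 10 genes are shown first, since Kdr, Flt1 and Tie1 were among the 4 most abundant and Nrp1 and Nrp2 differed in opposite ways between libraries. Each is the RefSeq window (GRCm38.p6) from 250 bases before to 50 after the start that RefSeq gives the gene. For Kdr, Tie1, Nrp1 and Nrp2 that start lies inside the gene as the deposited table bounds it, near its 5′ end. For Flt1 it is the bound itself. Each window is printed 5′ to 3′ on the strand of the gene. Capitals mark the letters CCGGAA and, as a second motif, AGGAAG, each read on either strand, which are cores bound by ETS factors, the transcription factor family that endothelial genes commonly use. The windows are chr5:75978406-75978705 (minus strand) for Kdr, chr5:147725962-147726261 (minus) for Flt1, chr4:118489800-118490099 (minus) for Tie1, chr8:128358823-128359122 (plus) for Nrp1 and chr1:62703067-62703366 (plus) for Nrp2.
Kdr: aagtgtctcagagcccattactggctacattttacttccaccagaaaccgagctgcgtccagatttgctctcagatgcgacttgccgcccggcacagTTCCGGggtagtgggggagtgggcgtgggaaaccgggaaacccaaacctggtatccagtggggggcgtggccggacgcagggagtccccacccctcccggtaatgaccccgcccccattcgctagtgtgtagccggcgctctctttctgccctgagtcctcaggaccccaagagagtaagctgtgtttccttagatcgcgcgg
Flt1: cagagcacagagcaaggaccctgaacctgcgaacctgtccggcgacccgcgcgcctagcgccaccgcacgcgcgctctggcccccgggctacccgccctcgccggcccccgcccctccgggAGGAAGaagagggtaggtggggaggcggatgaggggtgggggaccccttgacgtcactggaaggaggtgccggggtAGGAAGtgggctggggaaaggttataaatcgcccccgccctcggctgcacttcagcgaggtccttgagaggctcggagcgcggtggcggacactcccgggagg
Tie1: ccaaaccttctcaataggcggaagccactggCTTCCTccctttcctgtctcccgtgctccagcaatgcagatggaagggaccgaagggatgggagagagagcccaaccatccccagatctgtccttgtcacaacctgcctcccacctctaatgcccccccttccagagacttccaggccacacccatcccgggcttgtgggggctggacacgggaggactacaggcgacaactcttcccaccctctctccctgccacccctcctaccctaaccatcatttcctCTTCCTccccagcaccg
Nrp1: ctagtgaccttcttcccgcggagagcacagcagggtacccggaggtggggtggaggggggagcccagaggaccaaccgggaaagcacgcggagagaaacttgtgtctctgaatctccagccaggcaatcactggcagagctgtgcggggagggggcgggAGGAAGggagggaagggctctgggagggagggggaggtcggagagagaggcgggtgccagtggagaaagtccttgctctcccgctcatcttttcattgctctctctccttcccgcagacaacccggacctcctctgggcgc
Nrp2: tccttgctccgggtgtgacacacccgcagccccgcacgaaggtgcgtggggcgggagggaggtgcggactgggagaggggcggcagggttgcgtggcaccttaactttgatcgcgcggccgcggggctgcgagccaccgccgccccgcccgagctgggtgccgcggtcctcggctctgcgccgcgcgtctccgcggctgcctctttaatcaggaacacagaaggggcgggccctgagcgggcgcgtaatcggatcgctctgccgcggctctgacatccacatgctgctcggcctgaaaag

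Of the 10 genes, 9 had an entry in the promoter table, and Angpt2 had none. CCGGAA was found in 1 of the 9, Kdr, and in 14.9% of all 32851 promoters of the same length. AGGAAG was found in 4 of the 9 (Tie1, Flt1, Nrp1 and Apln) and in 35.4% of all promoters, with 2 matches each in Tie1 and Flt1. No match of one overlapped a match of the other in these windows. Of the other motifs searched on both strands, GGGCGG, bound by SP and KLF factors, was in 6 of 9 windows and in 35.7% of all promoters. The SOX core ACAAAG was in 2 of 9 windows (Tek and Apln) and in 18.7% of all promoters. The GATA core, written AGATAA here, was in 1 of 9 (Tek) and in 11.2%. The nuclear receptor core AGGTCA was in 1 of 9 (Nrp1) and in 16.3%, and the TATA box, searched as TATAAA, in 1 of 9 (Flt1) and in 13.6%. The forkhead motif GTAAACA was in 0 of the 9 windows and in 3.65% of all promoters. Likewise the core of the hypoxia response element, ACGTG, was in 0 of the 9 and in 19.6%. A match describes letters in a window and shows no binding.

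Kdr (ENSMUSG00000062960, GRCm38 chr5:75932827-75978458, minus strand) is the main signalling receptor for VEGF-A. Its level was 94.0 FPKM in untreated F_1, 87.7 in F_2 and 70.8 in M_1, and with bezafibrate it was 75.1 FPKM in F_1, 72.8 in M_1 and 60.3 in M_2. The highest value was in an untreated and the lowest in a bezafibrate library, but untreated M_1 lay below bezafibrate F_1 and M_1, so that the groups overlapped. The means were 84.2 ± 12.0 FPKM untreated and 69.4 ± 7.97 FPKM with bezafibrate (SD, n = 3 each). The log2 difference was -0.27 (SE 0.163, 95% interval -0.65 to 0.11), and the limma p was 0.137 before adjustment. Without bezafibrate M_2 the difference was -0.17.

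Flt1 (ENSMUSG00000029648, chr5:147561604-147726011, minus strand), the high-affinity VEGF-A receptor and decoy, was the most abundant of the 10. It stood at 360, 427 and 386 FPKM in the untreated libraries and at 393, 347 and 254 FPKM in the bezafibrate libraries, in the order F_1, F_2 and M_1, then F_1, M_1 and M_2, which is kept below. The value of 254 FPKM in bezafibrate M_2 was the lowest of the 6, and the other 5 interleaved between the chows. Between chows the log2 difference was -0.26 (SE 0.192, 95% interval -0.71 to 0.19), from means of 391 ± 33.8 and 331 ± 70.7 FPKM (SD, n = 3 each). Without bezafibrate M_2 it was -0.080, without bezafibrate F_1 -0.39, and with the replicate block -0.015. The table sums the 6 annotated transcripts of Flt1, so the membrane receptor and its soluble form cannot be told apart.

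Flt4 (ENSMUSG00000020357, chr11:49609263-49652739, plus strand), the receptor for VEGF-C and VEGF-D, is known for lymphatic vessels but is also made by blood endothelium. It was measured at 26.4, 39.3 and 48.4 FPKM in untreated libraries and at 51.0, 28.5 and 26.3 FPKM in bezafibrate libraries. Its 2 highest values were thus in bezafibrate F_1 and untreated M_1, 1 on each chow. Between chows the log2 difference was -0.13 (SE 0.303, 95% interval -0.83 to 0.58). The lymphatic endothelium markers Prox1, Lyve1 and Pdpn summed to 0.95 to 1.57 FPKM in untreated and 0.00 to 1.65 FPKM in bezafibrate libraries, and none of the 3 passed the filter.

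The neuropilins are transmembrane co-receptors; Nrp1 pairs mainly with VEGFR2 and Nrp2 with VEGFR3. Nrp1 (ENSMUSG00000025810, chr8:128358604-128503363, plus strand) stood at 23.9, 24.0 and 12.7 FPKM in the untreated and at 13.5, 23.2 and 16.3 FPKM in the bezafibrate libraries. Untreated M_1 and bezafibrate F_1 held its 2 lowest values. Nrp2 (ENSMUSG00000025969, chr1:62703285-62818695, plus strand) stood at 8.10, 7.02 and 12.9 FPKM in the untreated and at 10.99, 5.99 and 4.36 FPKM in the bezafibrate libraries. Here the same 2 libraries held the highest values. The log2 difference between chows was -0.16 (SE 0.286, 95% interval -0.83 to 0.50) for Nrp1. For Nrp2 it was -0.39 (SE 0.325, 95% interval -1.14 to 0.36), with -0.71 without bezafibrate F_1, -0.16 without untreated M_1 and -0.13 without bezafibrate M_2. Exons of Nrp1 share 0.818% of their bases with the microRNA gene Mir1903 on the same strand, and no exon base of the other 9 genes is shared with another gene.

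As deposited, the TIE receptors had the smallest differences of the 10 between chows, an order that TPM, endothelium-relative and voom scaling and the replicate block changed. Tek (ENSMUSG00000006386, chr4:94739289-94874976, plus strand), which encodes TIE2, was at 184, 159 and 124 FPKM in untreated and at 131, 171 and 138 FPKM in bezafibrate libraries. Tie1 (ENSMUSG00000033191, chr4:118471191-118490061, minus strand), its co-receptor without a firmly established ligand of its own, was at 186, 181 and 147 FPKM in untreated and at 175, 171 and 148 FPKM in bezafibrate libraries. In both genes the highest value was in untreated F_1 and the lowest in untreated M_1, so that the bezafibrate values lay inside the untreated range. The log2 difference was -0.08 for Tek (SE 0.189, 95% interval -0.52 to 0.36), and it turned to between 0.031 and 0.038 under TPM, quantile, endothelium-relative and voom scaling. For Tie1 it was -0.05 (SE 0.153, 95% interval -0.41 to 0.30), and it turned to between 0.057 and 0.066 under the same 4 scalings. The median over all genes was -0.01 as deposited, 0.10 after rescaling to TPM (transcript shares of equal total) and 0.01 after quantile scaling. It was 0.11 relative to endothelial markers and 0.10 under voom. With the scaling as deposited, the sign also turned for both genes without untreated F_1 (Tek 0.050, Tie1 0.011), and for Tie1 without bezafibrate M_2 (0.022), with sex as a covariate (0.023) and with the replicate block (0.064). The intervals leave room for a difference of either sign.

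**Figure D2:**
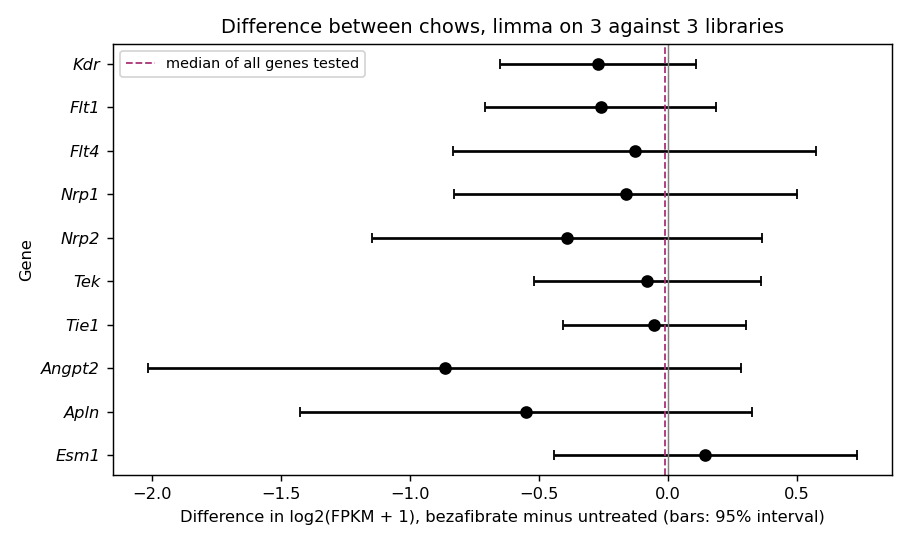
Difference in log2(FPKM + 1), bezafibrate minus untreated, for each gene (points) with its 95% interval from limma (bars); the dashed line is the median of all genes tested. Every interval spans 0, from -0.41 to 0.30 for Tie1 to -2.01 to 0.28 for Angpt2.

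Angpt2 (ENSMUSG00000031465, chr8:18690263-18741562, minus strand), the endothelial ligand of TIE2, had the largest difference of the 10 genes between the chows as fitted, and the widest interval. With sex as a covariate Apln had the larger one (-0.88 against -0.79), as it did without bezafibrate M_1 (-0.71 against -0.35). It was at 10.8, 14.4 and 25.2 FPKM in the untreated libraries and at 16.5, 3.505 and 8.98 FPKM in the bezafibrate libraries. The 2 highest values were in untreated M_1 and bezafibrate F_1, and the highest was 7.19 times the lowest. Group means were 16.79 ± 7.5002 FPKM untreated and 9.67 ± 6.53 FPKM with bezafibrate (SD, n = 3 each). The log2 difference was -0.86 (SE 0.494, 95% interval -2.01 to 0.28) with a limma p of 0.120 before adjustment. Without bezafibrate F_1 it was -1.33, with an unadjusted p of 0.0158 and an adjusted p of 0.447 by limma. Without untreated M_1 it was -0.54 and without bezafibrate M_1 -0.35, so its size depended on which of these libraries entered.

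Apln (ENSMUSG00000037010, chrX:48025146-48034853, minus strand) encodes apelin, a peptide that growing endothelium secretes. It was the least abundant of the 10, at 2.24, 2.71 and 5.23 FPKM in untreated and 0.688, 2.58 and 2.96 FPKM in bezafibrate libraries. These levels rest on 142, 152 and 306 reads and on 39, 173 and 175 reads. The groups overlapped, and the lowest value, in bezafibrate F_1, was the only one under 1 FPKM. The log2 difference was -0.55 (SE 0.377, 95% interval -1.43 to 0.33). It was -0.88 (SE 0.180) with sex as a covariate, where the limma p was 0.0022 before and 0.9998 after adjustment, and 0.12 with untreated M_1 and bezafibrate F_1 both left out, where only female untreated and male bezafibrate pools remain and chow and sex cannot be told apart. Left out alone, these libraries gave -0.27 and -0.16.

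Esm1 (ENSMUSG00000042379, chr13:113209659-113218098, plus strand) encodes endocan, a secreted proteoglycan made by tip cells, the leading cells of vessel sprouts, in response to VEGF. It was at 6.78, 3.91 and 3.13 FPKM in untreated and at 4.398, 4.51 and 6.19 FPKM in bezafibrate libraries, from 122 to 286 reads. The untreated libraries held both the highest and the lowest value. Its log2 difference was 0.15 (SE 0.253, 95% interval -0.44 to 0.73).

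Ordered by mean level over the 6 libraries, Flt1 (361 FPKM) stood above Tie1 (168), Tek (151), Kdr (76.8), Flt4 (36.6), Nrp1 (18.9), Angpt2 (13.2), Nrp2 (8.22), Esm1 (4.82) and Apln (2.74). Flt1 lay above 99.1% of protein-coding genes tested and Kdr above 94.95%, whereas Apln lay above 23.6%. The ranges of Flt1 and Tie1 did not overlap, and neither did those of Tek and Kdr, Kdr and Flt4, or Flt4 and Nrp1. Tie1 and Tek overlapped in range, although Tie1 was above Tek in 6 of 6 libraries. The lower neighbours were not separated by their spread. Nrp1 was above Angpt2 in 4 of 6 libraries, and Angpt2 above Nrp2, Nrp2 above Esm1, and Esm1 above Apln in 5 of 6 each.

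The genes differed in how much they varied among the 6 libraries. The SD of log2(FPKM + 1) was 0.87 for Angpt2, larger than in 98.1% of all genes tested, and 0.61 for Apln, larger than in 94.3%. That of Nrp2 was 0.50, larger than in 90.7%. At the other end Tie1 had an SD of 0.14, larger than in 18.2% of genes, while Kdr and Tek stood near the middle at 47.5% and 47.1%. The other receptor kinases were at 0.43 for Flt4, larger than in 85.6% of genes, and 0.26 for Flt1, larger than in 57.8%. Angpt2, Apln and Nrp2 thus varied more between pools of mice than Kdr, Tek and Tie1, with Flt4 and Flt1 in between. The values of Apln rest on 39 to 306 reads per library.

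**Figure D3:**
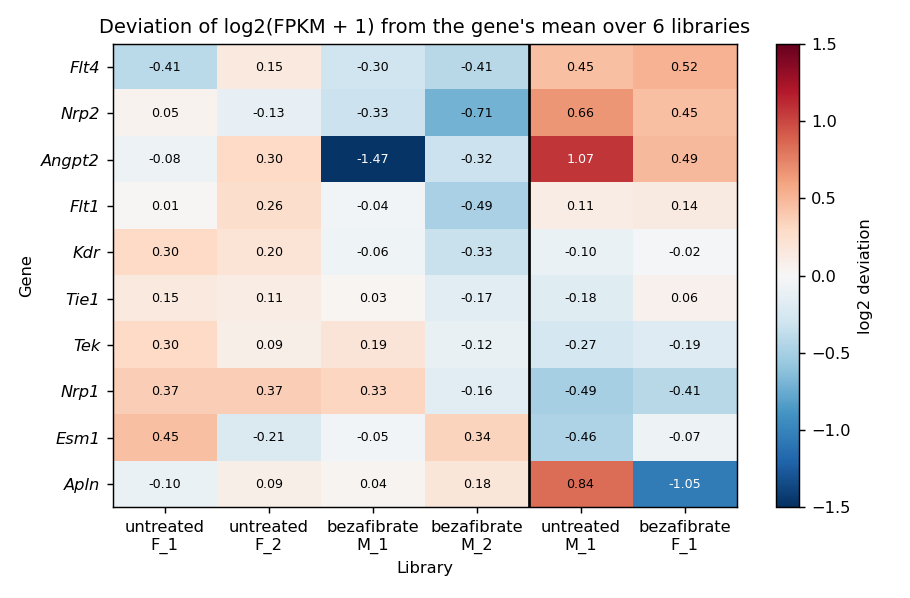
Deviation of log2(FPKM + 1) from the mean of each gene over the 6 libraries (colour and printed value), with untreated M_1 and bezafibrate F_1 at the right of the black line. Flt4, Nrp2 and Angpt2 are above their mean in both of those libraries, and Nrp1 and Tek are below it.

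The 2 libraries that stood apart held the 2 highest or the 2 lowest values of 5 of the 10 genes. Untreated M_1 and bezafibrate F_1 held the 2 highest values of Flt4, Nrp2 and Angpt2, which is 3 of the 10 genes, while 17.1% of all genes had this pattern. They held the 2 lowest values of Nrp1 and Tek, 2 of the 10, beside 14.8% of all genes. Neither share was tested against that of all genes. Apln, in contrast, was highest in untreated M_1 and lowest in bezafibrate F_1. Since these libraries are the only male pool on base chow and the only female pool on bezafibrate, the same pattern is read by a fit with chow, sex and their product as an interaction, and the 2 readings cannot be told apart. That fit called 0 of the 10 genes and 75 of 11277 overall (0.665%), with 2 residual degrees of freedom. At an unadjusted p under 0.05 it had 4 of the 10, beside 2398 of all genes (21.3%). The interaction was -1.67 for Nrp2 (SE 0.330, adjusted limma p 0.0687), 1.36 for Nrp1 (SE 0.339, adjusted p 0.0990), -1.45 for Flt4 (SE 0.366, adjusted p 0.101) and -2.35 for Angpt2 (SE 0.639, adjusted p 0.115). With the filter raised to 5 FPKM these 4 were called, as were 571 genes of 6404.

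With both of these libraries left out, 2 untreated female and 2 bezafibrate male libraries remained, so that chow and sex cannot be told apart in this fit. The limma p before adjustment was then 0.0271 for Angpt2 (log2 difference -1.01), 0.0282 for Kdr (-0.45) and 0.0453 for Nrp2 (-0.48). None passed after adjustment, the smallest adjusted p among the 10 being 0.520. Marker levels of the 2 libraries are given beside this pattern. Their summed endothelial markers were the highest of the 6, at 6052 FPKM in untreated M_1 and 5773 FPKM in bezafibrate F_1, against 4282 to 5375 FPKM in the other 4. The ratio of read total to implied library size was also highest in these libraries (1.09 and 1.06, against 0.888 to 1.03). A higher ratio raises FPKM relative to the share of reads, and it was not taken out of these sums. Their pericyte markers summed to 191 and 236 FPKM, against 311 and 344 FPKM in untreated F_1 and F_2 and 189.9 and 265 FPKM in bezafibrate M_1 and M_2. The part of these cell types in the values of the 10 genes was not tested.

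Sex was compared over the 3 female and 3 male libraries with chow as a covariate. Of the 10 genes 0 were called, and 3 of all genes (0.0266%). Apln, which lies on the X chromosome, had the largest difference, male minus female, at 1.00 on the log2 scale (SE 0.180). Its limma p was 0.0011 before and 0.707 after adjustment, and male values lay above female values on each chow. The only male library on base chow was at 5.23 FPKM, and the only female library on bezafibrate at 0.688 FPKM. In the remaining libraries Apln was at 2.24 and 2.71 FPKM (untreated females) and 2.58 and 2.96 FPKM (bezafibrate males). The other 9 genes had differences below 0, each with an adjusted p of 1.000, from -0.27 for Kdr to -0.12 for Tek.

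Ratios of 2 genes within a library do not depend on how the library was scaled, and 5 pairs were compared. The ratio of Flt1, with its membrane and soluble forms summed, to Kdr was 3.83, 4.88 and 5.46 in the untreated and 5.23, 4.76 and 4.21 in the bezafibrate libraries. That of Flt4 to Kdr was 0.280, 0.448 and 0.684 in untreated and 0.679, 0.391 and 0.436 in bezafibrate libraries. That of Nrp2 to Nrp1 was 0.339, 0.293 and 1.01 in untreated and 0.813, 0.258 and 0.268 in bezafibrate libraries. In untreated M_1 and bezafibrate F_1 the 2 neuropilins were therefore near equal per length of gene, whereas in the other 4 libraries Nrp1 was well above Nrp2. The ratio of Tie1 to Tek ran from 1.00 to 1.33. The ratio of Angpt2 to Tek, ligand to receptor, was 0.059, 0.090 and 0.203 in untreated and 0.126, 0.021 and 0.065 in bezafibrate libraries. Between chows the exact two-sided permutation p was 0.5 for Nrp2 to Nrp1 and for Angpt2 to Tek and 1 for the other 3 pairs, and the Benjamini-Hochberg value over the 5 was 1 for each. With 3 against 3 libraries this test cannot go below 0.1.

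**Figure D4:**
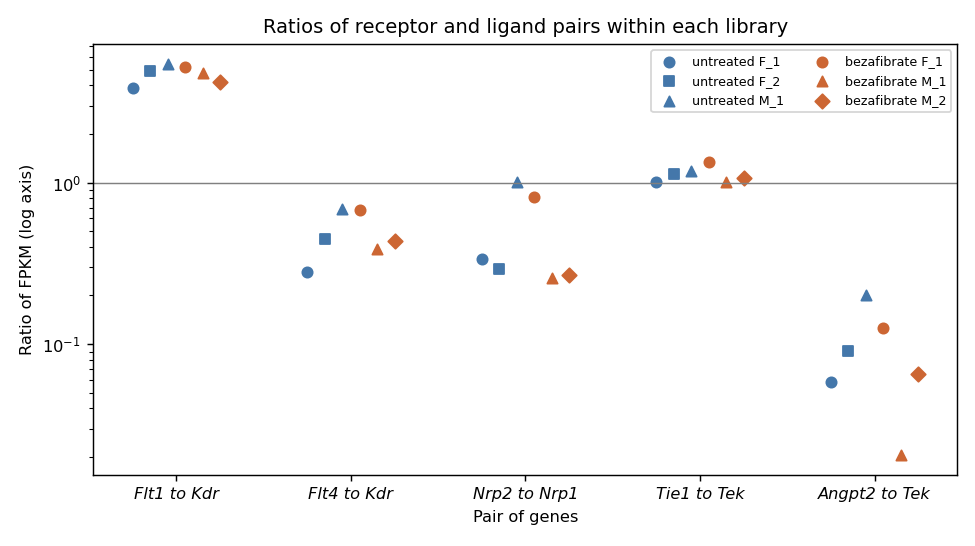
Ratio of FPKM within each library (log axis) for 5 pairs of genes; points are libraries, coloured by chow, and the grey line marks a ratio of 1. Flt1 to Kdr stays between 3.83 and 5.46, while Nrp2 to Nrp1 is near 1 in untreated M_1 and bezafibrate F_1 and between 0.258 and 0.339 in the other 4.

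Likeness of pattern was described by Pearson r of log2(FPKM + 1) over the 6 libraries, which share the 2 libraries that stood apart. Among the 10 genes, Nrp1 was closest to Tek (r = 0.949), Kdr to Tie1 (0.864), Flt4 to Nrp2 (0.814), Angpt2 to Flt4 (0.747) and Flt1 to Nrp2 (0.708). Esm1 was closest to Tek (0.533), and Apln to Angpt2 at only 0.115. Nrp1 and Nrp2 ran opposite to each other (-0.524), as did Flt4 and Esm1 (-0.801). Among 3688 other protein-coding genes with a mean of at least 10 FPKM, those nearest to Kdr were Filip1 (0.985), Mtmr3 (0.982) and Dusp8 (0.971). Those nearest to Angpt2 were Slc25a5 (0.996), Rps2 (0.991) and Pon2 (0.988), and those nearest to Esm1 were Nono (0.984), Taf9b (0.980) and Idh2 (0.977). With 6 points and this many candidates, values near 1 are the top of a long list.

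The rest of the pathway was read from 10 lists of 115 genes, of which 96 were tested, with 0 called. Of the 96, 33 had a difference above and 63 below 0, with a median of -0.07, and 6 had an unadjusted p under 0.05, beside 4.19% of all genes. The bezafibrate values lay above the untreated ones without overlap in 3 of the 96, beside 4.29% of all genes, and below them in 7, beside 4.13%. The named genes are the most abundant in each list and those with the most positive and most negative difference. All 5 VEGF ligand genes were tested, 3 above and 2 below 0, with a median of 0.07. Vegfc, a ligand of VEGFR3, was the most abundant at 29.4, 14.4 and 10.8 FPKM in untreated and 13.0, 22.3 and 18.9 FPKM in bezafibrate libraries. Vegfd had the most positive difference (0.30) and Pgf, the VEGFR1 ligand placental growth factor, the most negative (-0.59, SE 0.309). Vegfa, at 1.68 to 2.35 FPKM, had bezafibrate values that as deposited lay above the untreated ones without overlap. The nearest values were 1.997 FPKM in bezafibrate F_1 and 1.973 FPKM in untreated F_1, and the log2 difference between chows was 0.15 (SE 0.155). These nearest values rest on 154 of 19070085 and 170 of 19110040 recovered reads. Per recovered read their order was therefore reversed and the groups overlapped.

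On the angiopoietin side 2 of 6 genes were tested. Ptprb, the phosphatase VE-PTP that removes phosphate from TIE2, was at 149, 148 and 152 FPKM in untreated and at 140, 131 and 99.1 FPKM in bezafibrate libraries. As deposited, the 2 groups did not overlap, and the difference was -0.29 (SE 0.163) with a limma p of 0.114 before adjustment. The separation depends on the scaling. Per recovered read, bezafibrate M_1 (37018 of 18893195 reads) lay above untreated M_1 (37547 of 20228619), so the groups then overlapped. Foxo1, a transcription factor that TIE2 signalling restrains, had a difference of 0.02. Angpt1, the activating ligand of TIE2, was under 1 FPKM in all 6 libraries (0.266 to 0.822) and so was not tested. Neither gene on the apelin receptor side was tested: the receptor gene Aplnr was at 0.421 to 0.849 FPKM, and Apela was listed at 0 in every library.

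Of the neuropilin partners (semaphorins, plexins and Gipc1) 8 of 13 were tested, 3 above and 5 below 0, with a median of -0.05. Sema3c, a secreted semaphorin, was the most abundant and had the most negative difference (-0.15), and Sema3f the most positive (0.19). Of the genes that carry the VEGFR2 signal 22 of 25 were tested, 8 above and 14 below 0, with a median of -0.03. Nos3, the endothelial nitric oxide synthase, was the most abundant and stood at 116, 143 and 245 FPKM in untreated and 213, 135 and 118 FPKM in bezafibrate libraries, highest in the 2 libraries that stood apart. The kinase gene Src had the most positive difference (0.30) and Ptk2, the focal adhesion kinase gene, the most negative (-0.20). Of 11 genes that restrain receptor signalling, all tested, 2 were above and 9 below 0, with a median of -0.10. The feedback inhibitors Spry1, the most abundant, and Spry4, the most negative, had differences of -0.45 and -0.54, and the phosphatase gene Ptprj had the most positive at 0.02.

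Genes that VEGF is known to induce had the lowest median of the lists, which were chosen with earlier results of these data known. Of 12 genes 11 were tested, 0 above and 11 below 0, with a median of -0.63. An unadjusted limma p under 0.05 was found for 5 (Nr4a1, Nr4a2, Nr4a3, Dusp5 and Adamts1), beside 4.19% of all genes. Nr4a1, an immediate early nuclear receptor and the most abundant of them, was at 849, 622 and 530 FPKM in untreated and at 412, 289 and 365 FPKM in bezafibrate libraries. These groups did not overlap, and the difference was -0.89 (SE 0.221) with an adjusted limma p of 0.962. Egr3, a zinc finger transcription factor, had the most negative difference (-1.02, SE 0.452), from 36.2, 17.0 and 8.34 FPKM to 6.88, 7.28 and 10.6 FPKM. Egr1 had the least negative at -0.08. Under the alternatives the median of this list ran from -0.88 to -0.44. Many of them are immediate early genes that other stimuli induce as well, and the part of VEGF in their values was not tested.

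Of the tip cell genes 13 of 15 were tested, 4 above and 9 below 0, with a median of -0.13. Col4a1, a basement membrane collagen, was the most abundant and stood highest in untreated M_1 (388 FPKM) and bezafibrate F_1 (360 FPKM), with 168 to 238 FPKM in the other 4. Ramp3, a co-receptor for adrenomedullin, had the most negative difference (-0.997, SE 0.687) and was at 82.3 FPKM in untreated M_1 against 7.80 to 35.1 FPKM elsewhere. Igfbp3, which binds insulin-like growth factors, had the most positive (0.76, SE 0.179), from 60.2, 47.4 and 66.9 FPKM untreated to 84.1, 101 and 112 FPKM with bezafibrate, with an adjusted limma p of 0.962. The 10 hypoxia genes tested of 12 had 6 above and 4 below 0 and a median of 0.05. Epas1, which encodes HIF-2 alpha and was the most abundant, had a difference of -0.02. Hif1an, the asparagine hydroxylase that inhibits HIF, had the most positive (0.31) and Ndrg1 the most negative (-0.29). All 14 endothelial transcription factors were tested, 6 above and 8 below 0, with a median of -0.18. Klf2, a shear stress factor and the most abundant, had a difference of -0.24, Sox7 the most negative at -0.40 and Sox18 the most positive at 0.58.

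**Figure D5:**
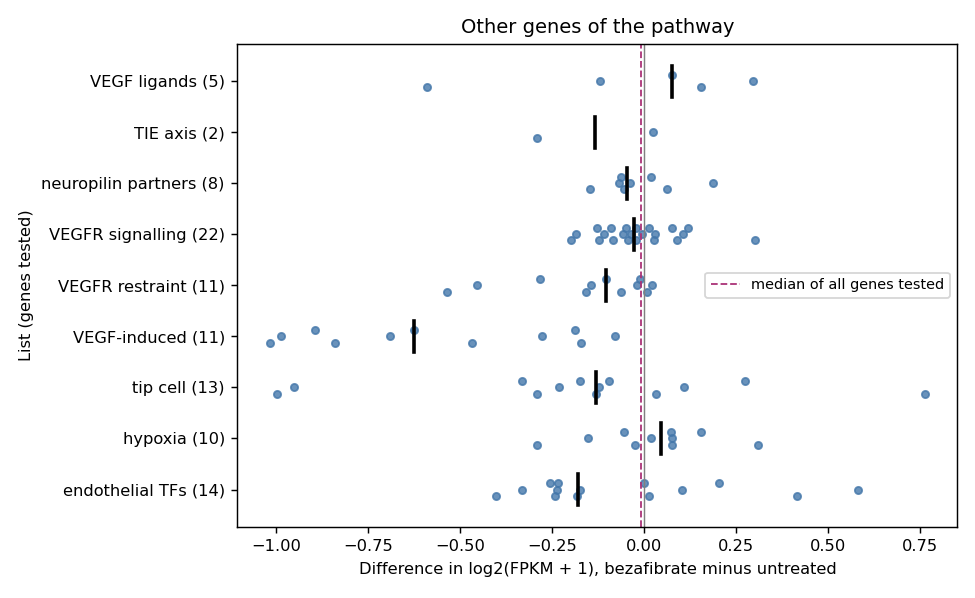
Difference in log2(FPKM + 1), bezafibrate minus untreated, for the tested genes of 9 lists (points), with the median of each list (black bar) and of all genes tested (dashed line). The VEGF-induced genes all lie below 0 with a median of -0.63, and the medians of the other lists lie between -0.18 and 0.07.

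Markers of other cells were present at lower summed levels than the endothelial ones. Summed over each list, smooth muscle markers were at 107 to 142 FPKM in untreated and 122 to 158 FPKM in bezafibrate libraries, astrocyte markers at 39.4 to 58.4 and 25.2 to 47.3 FPKM, and oligodendrocyte markers at 92.9 to 151 and 89.6 to 102 FPKM. Fibroblast markers summed to at most 3.31 FPKM, neuron markers to at most 4.68 FPKM and microglia and macrophage markers to at most 5.74 FPKM in any library. Ependymal and choroid plexus markers were at 359 to 402 FPKM in untreated and 406 to 939 FPKM in bezafibrate libraries, and erythrocyte markers at 45.4 to 298 and 51.4 to 149 FPKM. The median difference between chows was -0.13 for the 10 endothelial markers, beside -0.21 for the 10 genes. It was -0.24 for pericyte markers (7 of 8 below 0) and -0.26 for astrocyte markers (7 of 7). For oligodendrocyte markers it was -0.39 (7 of 7, 2 with an unadjusted limma p under 0.05, beside 4.19% of all genes). For ependymal and choroid plexus markers it was 0.32, with 5 of 6 above 0. None of these markers was called, and their part in the values of the 10 genes was not tested.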

How the data were processed

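The data are 6 RNA-seq libraries of sorted mouse brain endothelial cells, each from a separate pool of 3 mice, so that p-values measure the spread between pools. Per the labels' protocols, cDNA was made with SMART-Seq HT, single-end reads of 75 bases were de-duplicated, and Salmon mapped them to the transcriptome; GRCm38 is named in the submitters' processing notes. Salmon's version, its annotation and strand setting, and how FPKM were scaled, were not given in the sources used here. Values per gene are FPKM, as the authors deposited them. For the untreated male library the number in the column name differs from that in the title, and the description of the sample settled which column it is.

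FPKM multiplied by gene length gave whole reads for 100% of values at a tolerance of 0.01 reads, and these gave the depth and the voom fit. Salmon gives estimated counts that need not be whole, so how the deposited FPKM relate to the Salmon estimates is unknown. Treatment was tested on log2(FPKM + 1), for genes with at least 1 FPKM in at least 3 libraries, with limma 3.58.1 in R 4.3.3 (eBayes with a trend, two-sided, Benjamini-Hochberg over all 11277 genes, called at an adjusted p under 0.05). Sex and interaction fits used the same model; ratios of genes were tested by exact permutation with SciPy 1.17.1. Of the fits, only that by chow was tested on simulated data, with planted differences larger than any of the 10 genes had. All 10 genes are printed; in each pathway list the called genes, or else the most abundant and those with the most positive and most negative difference, are named, and others where the groups did not overlap or the unadjusted p was under 0.05 were chosen after their values were seen. For likeness, the closest of the 10 genes is named for each, and the 3 closest other genes for Kdr, Angpt2 and Esm1.

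Alternatives were a pseudocount of 0.1, a filter of 5 FPKM or none, TPM, median-of-ratios, quantile and endothelium-relative scaling, sex as a covariate, a replicate block, limma-voom on recovered reads, and leaving out libraries. Positions are those of the table and match GENCODE for all 10 genes. The members and lists were chosen with earlier results of these data known.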

Additional observations from a re-analysis of the deposited data

How the results depend on the processing

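Calls among the 10 genes and among the pathway genes by treatment were 0 under each of 17 alternatives. The count over all genes, 1 as reported, was 0 under the replicate block, under limma-voom and without untreated M_1 and bezafibrate F_1 together, and ran from 0 to 3 when single libraries were left out (3 without bezafibrate F_1). Kdr, Flt1, Nrp2 and Angpt2 had a difference below 0 under all 17, but of varying size (Flt1 from -0.40 to -0.015, Angpt2 from -1.33 to -0.35). Tek and Tie1 turned to 0.038 and 0.066 under TPM, 0.032 and 0.057 under quantile scaling, 0.037 and 0.064 relative to endothelial markers, and 0.031 and 0.059 under limma-voom. The median over all genes was also higher under each of these than as deposited. Tie1 was 0.023 with sex as a covariate. Apln was 0.12 without untreated M_1 and bezafibrate F_1, a fit of female untreated against male bezafibrate pools. With the replicate block, which pairs pools by name and so rests on F_1 and M_1, Flt4 was 0.090, Nrp1 0.021, Tie1 0.064 and Esm1 -0.057. The deviations of same-named pools correlated at -0.36 (F_1) and -0.30 (M_1), so the names were not taken to pair them. By its column name the untreated male library would pair with bezafibrate M_2, where the correlation was -0.16.

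With single libraries left out, the difference ran from -0.42 to 0.063 for Flt4, -0.45 to 0.0031 for Nrp1, -0.23 to 0.050 for Tek, -0.16 to 0.022 for Tie1 and -0.048 to 0.41 for Esm1. The log2 difference of the ratios ran from -0.13 to 0.13 for Flt1 to Kdr, -0.19 to 0.46 for Flt4 to Kdr, -0.82 to 0.28 for Nrp2 to Nrp1 -0.093 to 0.11 for Tie1 to Tek and -1.49 to -0.18 for Angpt2 to Tek. The interaction was called for 4 of the 10 genes with a filter of 5 FPKM and for 0 with a pseudocount of 0.1 or TPM. The causes were not tested. That filter left out Apln and Esm1, which have no value there. Apln, with 39 to 306 reads per library, is where counting error weighs most.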
